A study of Equus caballus with 2 samples.

Results

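The genes described here are *NOX4* and 9 antioxidant enzymes (*SOD1*, *SOD2*, *SOD3*, *CAT*, *NQO1*, *HMOX1*, *GPX1*, *GPX3* and *TXNRD1*), measured in cultured equine endometrial fibroblasts. They were selected by gene symbol, with earlier results of these data known, and 9 of the 10 were found among the 21426 genes of the count tables. *GPX1* was not matched by symbol and is named only. Fibroblasts of 4 mares were pooled for each treatment, and each pool was sequenced as 1 droplet library with 3′ counting of unique molecular identifiers (UMIs), so that 1 UMI stands for 1 captured transcript. The control library came from cells kept for 24 h in medium with 0.1% BSA in place of serum. The TGF-β1 library came from cells that additionally received 10 ng/ml human recombinant TGF-β1 over the same 24 h. Cells were not assigned to mares here, so values of single mares are not given.

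*NOX4* is a membrane-bound NADPH oxidase that releases mainly hydrogen peroxide and is a known TGF-β1 responsive gene of fibroblasts and myofibroblasts. Superoxide dismutases turn superoxide into hydrogen peroxide, and catalase, the glutathione peroxidases, and the thioredoxin system with its reductase *TXNRD1* remove peroxides. *NQO1* and *HMOX1* encode a quinone reductase and the inducible haem oxygenase, both classic targets of the transcription factor NRF2, which is held back by *KEAP1* until oxidants or electrophiles release it.

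Analysed cells held 20000 or more UMIs, 3500 or more genes and less than 4% mitochondrial UMIs, which kept 3865 of 4384 control barcodes and 4513 of 5124 TGF-β1 barcodes. The kept cells held 210497250 and 219731144 UMIs, with a median of 50313 UMIs per control cell and 43142 per TGF-β1 cell. Only 2 barcodes were shared between the kept cells of both libraries. All 7 fibroblast markers were present, including *VIM* (4399 CPM in control and 2240 CPM in TGF-β1, where CPM is the summed UMI count scaled to a library total of 1000000) and *COL1A1* (5608 and 6376 CPM). Of the epithelial markers, *EPCAM* had 1 and 3 UMIs and *CDH1* had 6 and 4 UMIs, while the summed level of the 6 markers found was 134 CPM in control and 12.3 CPM in TGF-β1. *KRT8* made up 114 CPM of this in control and 4.48 CPM in TGF-β1, and *KRT7* 19.3 and 7.04 CPM. The 6 endothelial markers summed to 1.48 and 1.58 CPM, and *PTPRC*, the defining immune marker, had 1 and 0 UMIs. The summed immune markers were at 42.7 and 43.2 CPM, nearly all of it *CD68*. The 6 smooth muscle or pericyte markers, mostly *ACTA2* (3608 and 4745 CPM), summed to 4548 and 5855 CPM, with 3 higher and 3 lower after TGF-β1, and the 10 cycling markers to 73.1 and 53.7 CPM. The part of these markers in the results was not tested. All 6 genes taken as a readout of TGF-β1 were higher in the TGF-β1 library, and their log2 ratios had a median of 1.35 and reached 2.32 (*TGFBI*).

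The first question was how TGF-β1 treated and control cells differed in the level of each gene. *NOX4* was the only gene of the set with a higher level after TGF-β1, and all 7 abundant antioxidant enzymes were lower. The largest difference was that of *CAT*, the peroxisomal catalase, which was more than 2-fold lower. Each ratio divides the TGF-β1 level by the control level and is given as a log2 value with no pseudocount. Intervals are exact at the 95% level and cover counting error only. With 1 library per condition there is no replicate check and no test, and library preparation and treatment cannot be told apart.

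The *NOX4* level was 54.6 CPM (53.6 to 55.6) in control and 70.9 CPM (69.8 to 72.0) in TGF-β1. These values rest on 11490 and 15571 UMIs and give a log2 ratio of 0.38 (0.34 to 0.41), or 1.3-fold. Among genes averaging 10 CPM or more, 74.9% differed by less in either direction.

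Among the superoxide dismutases, *SOD1*, the abundant cytosolic copper and zinc enzyme, was at 485 CPM in control and 388 CPM in TGF-β1, a log2 ratio of -0.32 (-0.34 to -0.31). The mitochondrial manganese enzyme *SOD2* was at 40.4 CPM and 27.6 CPM, a log2 ratio of -0.55 (-0.60 to -0.50). The secreted enzyme *SOD3* was at 32.3 CPM and 20.6 CPM, a log2 ratio of -0.64 (-0.70 to -0.59). All 3 forms were thus lower in the TGF-β1 library, and the control and TGF-β1 intervals of each level did not overlap.

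Among the enzymes that remove peroxides, *CAT* had a level of 103 CPM (101 to 104) in control and 41.1 CPM (40.3 to 42.0) in TGF-β1. The log2 ratio was -1.32 (-1.36 to -1.28), larger in size than that of 97.5% of the genes compared. *TXNRD1*, the cytosolic thioredoxin reductase, was at 241 CPM and 188 CPM, a log2 ratio of -0.36 (-0.37 to -0.34). *GPX3*, the secreted plasma glutathione peroxidase, was close to absent, with 57 UMIs in control and 56 in TGF-β1. Its levels of 0.271 and 0.255 CPM gave a log2 ratio of -0.09 with an interval from -0.65 to 0.47, so no difference in *GPX3* was detectable at this depth.

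Of the 2 NRF2 target enzymes with protective roles outside the removal of peroxides, *NQO1* was at 28.8 CPM in control and 20.1 CPM in TGF-β1, a log2 ratio of -0.52 (-0.58 to -0.46). *HMOX1*, which breaks down haem, was at 30.9 CPM and 20.4 CPM, a log2 ratio of -0.60 (-0.65 to -0.54). Both levels were lower after TGF-β1, but the *HMOX1* ratio rested largely on a few control cells, as described further on.

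Of the 9 genes found, 8 averaged 10 CPM or more and were counted. *CAT* was the 1 gene of the 8 that differed more than 2-fold, against 4.43% of the 7658 genes at this level, and it was lower, as were 2.13%. None was more than 2-fold higher, against 2.3% of these genes. At a limit of 1.5-fold, 3 of the 8 differed (*SOD3*, *CAT* and *HMOX1*), against 12.7% of all. All 3 were lower, against 6.48%, and 0 were higher, against 6.19%. The counting interval lay below 0 for 7 of the 8, as it did for 42.1% of the 7658 genes, and above 0 for *NOX4*, as for 44.5%. At this depth even small differences exceed counting error. The median log2 ratio of the 8 was -0.54, beside 0.01 over all genes, of which 3939 were higher and 3719 lower.

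**Figure D1:**
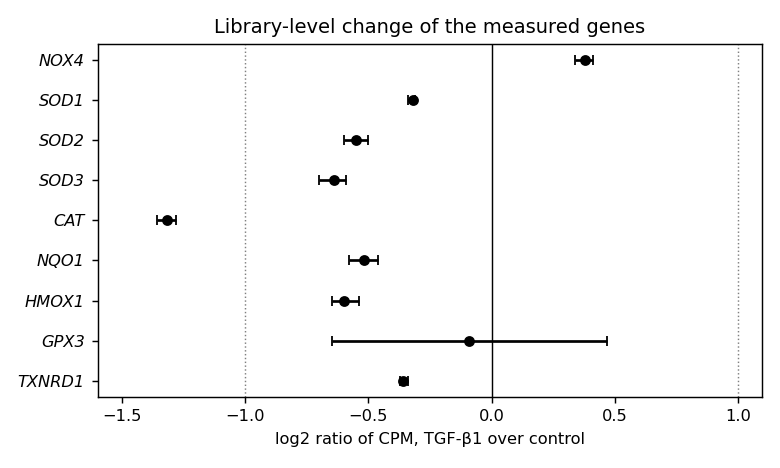
Log2 ratio of TGF-β1 over control for each gene found, from UMIs summed over the kept cells of 1 library per condition, with exact 95% intervals for counting error. *NOX4* sits above 0 at 0.38, *CAT* is lowest at -1.32, and the wide interval of *GPX3* includes 0.

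The next question was whether the differences came from more or fewer positive cells. Because TGF-β1 cells held fewer UMIs, each cell was first thinned to 20000 UMIs, and no cell was lost by this since all held at least that number. The shares are set beside the share expected if the same number of UMIs fell evenly over all cells (a Poisson count of the same mean). No cell type that should lack these genes was present, so UMIs from free RNA were not measured.

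*NOX4* was found in 43.1% of control cells (41.6 to 44.7) and in 57.6% of TGF-β1 cells (56.2 to 59.1). Without thinning the shares were 64.2% and 76.2%. An even spread would have given 64.0% and 74.2% at 20000 UMIs, so *NOX4* was concentrated in a subset of cells in both libraries. The highest 10% of cells carried 54.7% of the *NOX4* UMIs in control and 43.5% in TGF-β1. *NOX4* was thus spread over more cells after TGF-β1, and the ratio of variance to mean of its UMIs was 3.81 in control and 2.93 in TGF-β1.

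The *NOX4* difference lay mostly among cells with few UMIs. Cells with 1 *NOX4* UMI made up 21.9% in control and 26.3% in TGF-β1. Those with 3 to 5 UMIs were 8.15% and 13.4%. At the top, cells with 6 or more *NOX4* UMIs were nearly as frequent in control (3.80%) as in TGF-β1 (4.01%). Without thinning, the median cell had 21.7 CPM of *NOX4* in control and 41.3 CPM in TGF-β1. The 90th percentiles were 134 and 160 CPM. In single cells such low levels rest on few whole UMIs and shift with depth, so the ratio of these medians is not read.

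*CAT* was found in 78.9% of control cells (77.6 to 80.2) and in 52.5% of TGF-β1 cells (51.0 to 54.0). Cells with 2 or more *CAT* UMIs made up 52.9% in control and 20.1% in TGF-β1, and those with 6 or more made up 6.34% and 0.244%. Without thinning, the median cell had 87.0 CPM and 31.7 CPM. The lower *CAT* level was thus seen across the cell distribution, with fewer positive cells, a lower median and almost no cells of high count.

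*SOD2* was found in 48.8% of the control cells and 38.9% after TGF-β1, *SOD3* in 36.6% and 25.1%, and *NQO1* in 41.2% and 32.0%. In each case the intervals of both libraries did not overlap. *NQO1* was spread almost evenly over cells, with 44.5% and 33.0% expected from an even spread, whereas *SOD3* was not, with 50.1% and 33.9% expected. The highest 10% of cells carried 53.9% of *SOD3* UMIs in control and 63.6% in TGF-β1. *SOD1* and *TXNRD1* were near their ceiling, at 99.9% and 99.7% of cells for *SOD1* and 95.5% and 94.0% for *TXNRD1*, so their shares say little about level. *GPX3* was found in 0.699% and 0.487% of cells, with overlapping intervals.

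*HMOX1* was the exception. It was found in 31.5% of control cells (30.1 to 33.0) and 31.0% of TGF-β1 cells (29.7 to 32.4). Without thinning the shares were 55.1% and 54.8%, and the median cell had 15.2 CPM and 15.5 CPM. With few *HMOX1* UMIs in the median cell, these medians add little to the shares. An even spread would have given 51.0% in control and 33.9% in TGF-β1. Cells with 2 or more *HMOX1* UMIs were less frequent after TGF-β1, at 9.83% in control and 7.11% in TGF-β1, and those with 3 to 5 were at 3.03% and 1.66%. The lower mean level of *HMOX1* thus came with a nearly equal share of positive cells, but fewer cells with several UMIs.

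**Figure D2:**
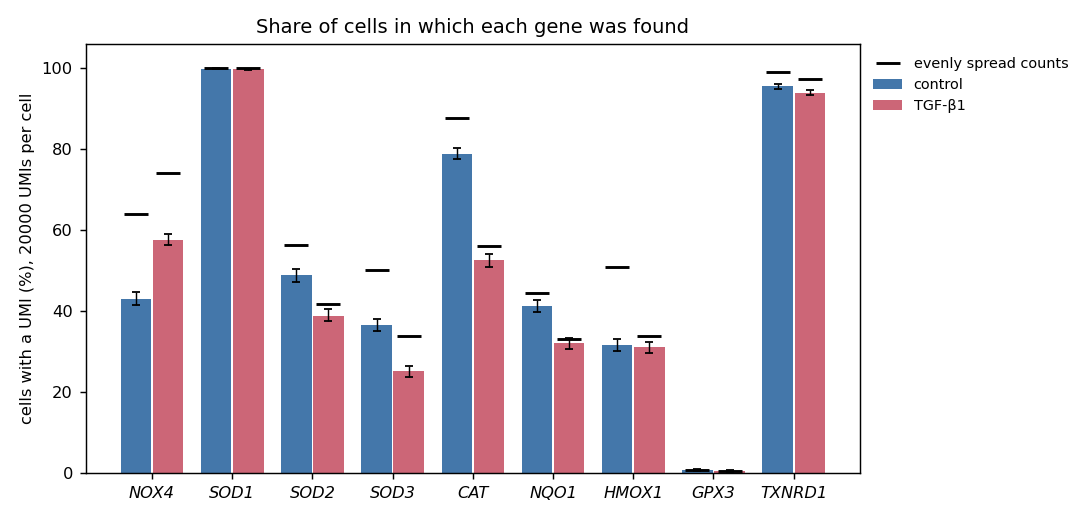
Share of cells (%) with at least 1 UMI of each gene after thinning every cell to 20000 UMIs, in 3865 control and 4513 TGF-β1 cells, with exact 95% intervals. Black marks give the share expected if the same UMIs were spread evenly. The share was higher in TGF-β1 for *NOX4*, lower for *CAT*, *SOD2*, *SOD3* and *NQO1*, and nearly equal for *HMOX1*.

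Before thinning, 3 control cells held 426, 407 and 303 *HMOX1* UMIs, and the next highest held 81. These 3 cells carried 17.4% of the 6511 control *HMOX1* UMIs, and the 10 highest cells carried 22.9%. In TGF-β1 the 3 highest cells carried 1.87% of 4486 UMIs. The 3 control cells held 24955 to 44068 UMIs in all with 0.381% to 3.22% mitochondrial UMIs, within the filters. Without the 1% of cells highest in *HMOX1* in each library, the levels were 21.9 and 19.1 CPM and the log2 ratio was -0.20 (-0.26 to -0.14). For the other genes above 10 CPM, removing the highest 1% of cells in each gene moved the ratio little: *CAT* was at -1.33 and *NOX4* at 0.41. The difference in *HMOX1* between libraries hence depended on the highest cells more than those of *CAT* and *NOX4* did.

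**Figure D3:**
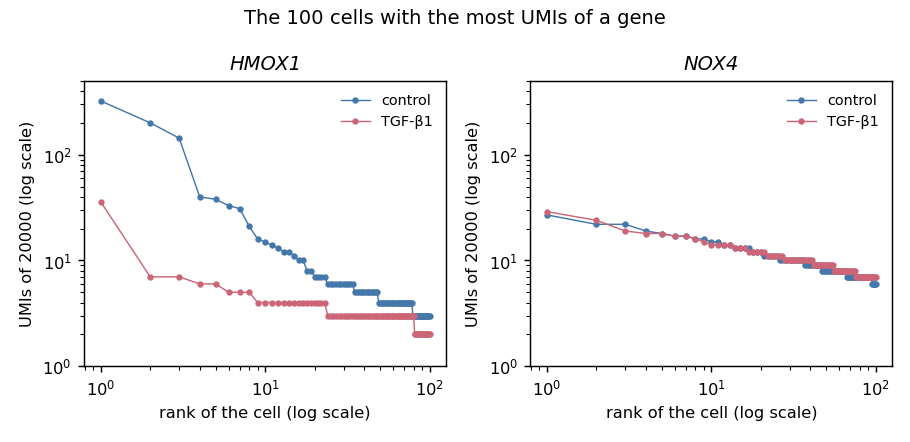
UMIs of *HMOX1* (left) and *NOX4* (right) in the 100 highest cells of each library, ranked, after thinning to 20000 UMIs per cell, on log axes. For *HMOX1* the 3 highest control cells (324, 201 and 144 UMIs) stand apart from the TGF-β1 cells (36 at most), whereas the curves of *NOX4* nearly coincide.

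To ask whether the differences held across kinds of fibroblasts, cells were clustered with the members left out of the variable genes, which gave 7 clusters with at least 50 cells of each library. The members therefore did not define the clusters, although genes that vary with them may have. The study reports that a cluster of its own consisted almost wholly of cells from a single mare. The clusters here may likewise follow mares as well as kinds of fibroblasts, which was not tested. Cluster 0 (leading genes *NLGN1*, *COL4A3* and *NRG1*), cluster 1 (*CRABP2*, *DLK1* and *IGFBP3*), cluster 2 (*FGF14*, *NPFFR2* and *COL11A1*) and cluster 3 (*SPP1*, *KRT7* and *KRT8*) held most cells. Cluster 4 (*CDC42EP2*, *C1R* and *CFD*) had *SOD3* itself among its 10 leading genes. Cluster 5 was cycling-like, with all 10 cycling markers more than 2-fold higher than in other cells. Cluster 6 was small, with 105 control and 57 TGF-β1 cells, and was led by *CA4*, *GDF15* and *KRT1*, with *CDKN1A* also among its leading genes.

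*NOX4* was higher in TGF-β1 in all 7 clusters, with intervals above 0 in each. With a finer clustering (resolution 0.8) it was higher in all 11 clusters with enough cells, with intervals above 0 in 9, and the lowest ratio was 0.07 (-0.02 to 0.16). Over the 7 clusters the log2 ratios ran from 0.25 (0.18 to 0.32) in cluster 2 to 0.96 (0.72 to 1.20) in cluster 6. These intervals count UMIs and leave out the uneven spread of *NOX4* over cells. By cells, the *NOX4*-positive share in cluster 6 was 47.6% (37.8 to 57.6) in control and 70.2% (56.6 to 81.6) in TGF-β1. In cluster 5 it was 45.6% (37.0 to 54.3) and 61.5% (53.4 to 69.2). The share intervals overlapped in clusters 5 and 6 but not in the others. In cluster 3, where *KRT7* and *KRT8* lead, the ratio was 0.53 (0.43 to 0.62). The order of *NOX4* levels across clusters in control was cluster 0 (73.1 CPM), 2 (69.9), 6 (55.0), 5 (51.5), 3 (41.0), 1 (36.2) and 4 (17.1). Neighbours 0 and 2, and 6 and 5, had overlapping intervals, whereas the other steps exceeded counting error. In TGF-β1 cluster 6 came first (107 CPM), followed by 0 (interval of 92.6 to 97.6), 2 (83.1), 5 (65.6), 3 (59.1), 1 (45.7) and 4 (22.7). The intervals of clusters 6 and 0, and of 5 and 3, overlapped. Cluster 4 thus had the lowest *NOX4* level in both libraries, and there the *NOX4*-positive share was 20.0% in control and 33.8% in TGF-β1.

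*CAT* was more than 2-fold lower in all 7 clusters, from -1.18 (-1.27 to -1.08) in cluster 3 to -1.75 (-1.96 to -1.54) in cluster 4. Its highest level was in cluster 6 in both libraries, at 189 CPM in control and 58.9 CPM in TGF-β1. The share of *CAT*-positive cells in cluster 6 was 89.5% in control and 56.1% in TGF-β1. *SOD1* (-0.39 to -0.22), *SOD2* (-0.74 to -0.40) and *TXNRD1* (-0.58 to -0.15) were also lower in every cluster. The direction of these 4 genes therefore did not depend on the cluster.

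*SOD3*, *NQO1* and *HMOX1* varied more between clusters. *SOD3* ranged from -0.93 (-1.03 to -0.83) in cluster 0 to 0.08 (-0.26 to 0.41) in cluster 6, and was 0.03 (-0.32 to 0.39) in cluster 5. Its level was highest in cluster 4 in control (61.5 CPM), and clusters 4 and 6 shared the highest level in TGF-β1 (41.2 CPM each). *NQO1* was lower in all 7 clusters, from -0.88 in cluster 6 to -0.08 in cluster 5, where the interval of -0.35 to 0.19 included 0. The differences between clusters were not tested, as each rests on 1 library per condition.

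*HMOX1* in cluster 6 was at 326 CPM in control and 40.8 CPM in TGF-β1, a log2 ratio of -3.00 (-3.29 to -2.73). All 3 of the highest control cells, and 8 of the 10 highest, were in this cluster. In the other clusters the *HMOX1* ratio lay between -0.36 (cluster 0) and 0.11 (cluster 4). Its interval lay below 0 in clusters 0, 2 and 3 and included 0 in clusters 1, 4 and 5. Leaving cluster 6 out, the levels were 22.9 and 20.2 CPM, a log2 ratio of -0.18 (-0.24 to -0.12). *HMOX1* was nevertheless common in cluster 6 beyond those cells, found in 65.7% of its control cells and 50.9% of its TGF-β1 cells, with overlapping intervals.

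**Figure D4:**
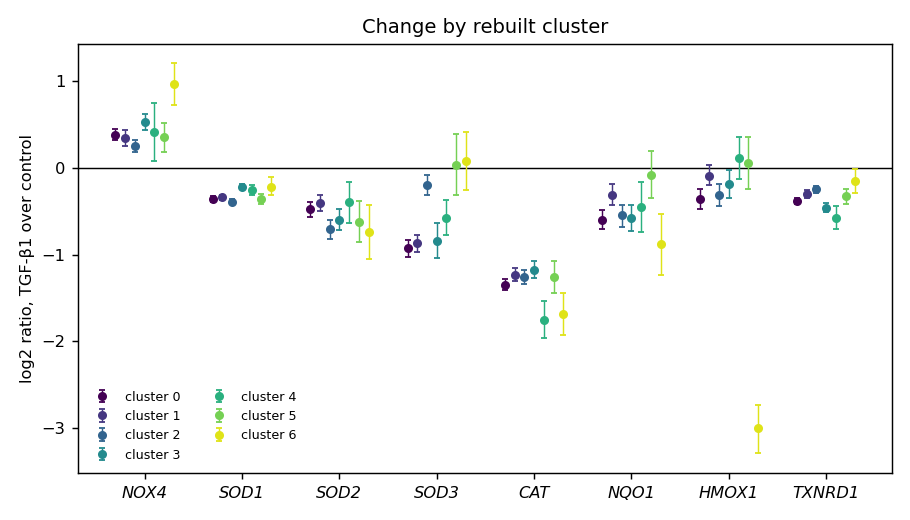
Log2 ratio of TGF-β1 over control for each gene above 10 CPM in the 7 rebuilt clusters, each point 1 cluster, with exact 95% intervals for counting error. *NOX4* lies above 0 and *CAT* below -1 in every cluster, whereas *HMOX1* ranges from -3.00 in cluster 6 to 0.11 in cluster 4.

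Libraries differed in depth per cell, and the ratios were recomputed within classes of cells by total UMIs, a split chosen after seeing the data. In cells of 20000 to 35000, 35000 to 50000 and at least 50000 UMIs, the *NOX4* ratio was 0.32, 0.62 and 0.40. *CAT* was at -1.59, -1.49 and -1.20 in the same classes. *SOD3* was at -1.14, -1.17 and -0.29, and *HMOX1* at -1.48, -1.01 and -0.23. The direction of each held in all classes, but the *SOD3* and *HMOX1* ratios were several times smaller among the deepest cells. *SOD1*, *SOD2*, *NQO1* and *TXNRD1* stayed between -0.70 and -0.26.

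The next question was whether *NOX4* and the enzymes were found in the same cells. A ratio of the share of cells with both genes to the product of the single shares is 1 when detection is independent. Over the 21 pairs in which neither gene was found in more than 90% of cells, the median ratio was 1.04 in control and 1.02 in TGF-β1. Over all 36 pairs, correlations across the cells of a library, on log2-transformed thinned counts, were between -0.12 and 0.12. Most of these genes had sparse counts, in which values this weak are not read as a relation. The lowest value was that of *SOD1* and *TXNRD1*, which were found in nearly all cells, at -0.12 in control and -0.11 in TGF-β1. The median cell held a UMI of 5 of the 9 genes in control and of 4 in TGF-β1.

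The pair of *NOX4* and *HMOX1* had the lowest ratio in control and was picked for this after the values were seen. Both genes were found in 447 of 3865 control cells (11.6%), against a product of 13.6%, a ratio of 0.851 (0.778 to 0.928). *HMOX1* was found in 26.8% of *NOX4*-positive control cells (24.7 to 29.0) and in 35.1% of *NOX4*-negative cells (33.1 to 37.1). Within clusters the ratio was 0.855, but without thinning it was 1.00. In TGF-β1 the ratio was 0.962 and the shares were 29.9% and 32.6%, with overlapping intervals. By *NOX4* count, the *HMOX1* share in control was 35.1% (33.1 to 37.1) in cells without *NOX4* and 18.4% (12.5 to 25.6) in those with 6 or more *NOX4* UMIs. In TGF-β1 it was 32.6% (30.5 to 34.8) without *NOX4*, 25.0% (21.6 to 28.7) at 3 to 5 UMIs and 22.1% (16.3 to 28.9) at 6 or more. In both libraries *HMOX1* was thus found less often among the cells with the most *NOX4*, at the thinned depth. Before thinning, cells with 6 or more *NOX4* UMIs held more UMIs in all than those without. The medians were 52462 and 48631 UMIs in control, and 47963 and 41356 in TGF-β1. From cells of 20000 to 35000 UMIs to those of at least 50000, *HMOX1* fell from 71.2 to 22.7 CPM in control. *NOX4* rose there from 39.1 to 61.6 CPM. The part of depth in the shares by *NOX4* count was not tested.

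The pair of *CAT* and *NQO1* was also picked after its values were seen. In control its ratio was 1.05 (1.0 to 1.1), and 1.01 without thinning. *NQO1* was found in 43.3% of *CAT*-positive cells (41.5 to 45.1) and in 33.4% of *CAT*-negative cells (30.1 to 36.7). In TGF-β1 the shares were 32.7% and 31.2%. *NOX4*-positive and *NOX4*-negative cells had nearly equal shares of *CAT* in both libraries, 79.2% and 78.7% in control and 53.4% and 51.3% in TGF-β1. By *NOX4* count, the *CAT* share in TGF-β1 was 51.3% (49.0 to 53.6) without *NOX4*, 57.1% (53.1 to 61.1) at 3 to 5 UMIs and 59.1% (51.6 to 66.4) at 6 or more, and in control it was 78.7% without *NOX4* and 76.9% at 6 or more. *CAT* detection was therefore not lower beyond counting error in cells with more *NOX4*. Between the same outer classes in TGF-β1, the *SOD2* share was 39.9% (37.7 to 42.1) and 29.3% (22.8 to 36.5), and the *SOD3* share 23.4% (21.5 to 25.4) and 34.8% (27.9 to 42.2). In control these shares were 50.9% and 45.6% for *SOD2* and 37.2% and 39.5% for *SOD3*, with overlapping intervals.

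Among the other genes of the NADPH oxidase family, *NOX4* was the only catalytic subunit with more than trace counts. *NOX1* had 24 UMIs in control and 46 in TGF-β1, *NOX5* had 73 and 88, *CYBB* (the phagocyte oxidase) had 28 and 8, *DUOX1* had 6 and 9, *NOX3* had 0 and 1, and *DUOX2* had none. *CYBA*, the membrane partner that *NOX4* requires, was lower after TGF-β1, at 441 CPM in control and 264 CPM in TGF-β1, a log2 ratio of -0.74. *POLDIP2*, a protein that binds and activates *NOX4*, was also lower (-0.36), whereas *NCF1*, an organiser subunit of the phagocyte oxidase, was higher (19.4 and 26.0 CPM, 0.42). Of the 17 genes found in this list, 6 reached 1 CPM, and 3 of these were higher and 3 lower, with a median of -0.03. The higher *NOX4* level thus came beside a lower level of its partner *CYBA*. Over the same cells the mean *CYBA* count after thinning was 9.34 in control cells without *NOX4* and 7.95 in those with 6 or more *NOX4* UMIs.

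In the lists of antioxidant genes, members were compared with relatives fixed by function. Over the 12116 genes averaging 1 CPM or more, 6.91% differed more than 2-fold, 3.45% higher and 3.46% lower, and 17.0% more than 1.5-fold. The median over these genes was -0.01, with 5897 higher and 6219 lower. The lists include the members themselves. The copper chaperone *CCS*, which loads *SOD1*, was lower with the dismutases (48.9 and 37.9 CPM, -0.37), so 4 of 4 genes of this list were lower with a median of -0.46. In the list of catalase and glutathione peroxidases, 2 genes were higher and 2 lower. *GPX8*, an endoplasmic reticulum peroxidase, was at 223 CPM in control and 426 CPM in TGF-β1 (0.93), while *GPX4*, which reduces lipid peroxides, was at 618 and 424 CPM (-0.54). Genes of peroxide removal thus lay on both sides of 0.

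*TXNRD1* belongs to a thioredoxin and peroxiredoxin list of which 4 of 15 genes were higher and 11 lower, with a median of -0.10. The largest differences were *GLRX2*, a mitochondrial glutaredoxin (135 and 436 CPM, 1.69), *PRDX2*, a cytosolic peroxiredoxin (75.0 and 35.9 CPM, -1.06), and *TXNIP*, an inhibitor of thioredoxin (20.1 and 30.6 CPM, 0.60). *PRDX4*, the peroxiredoxin of the endoplasmic reticulum, was higher as well (922 and 1295 CPM, 0.49). Of 15 genes of glutathione synthesis and use, 12 were lower and 3 higher, with a median of -0.32. *GCLC*, the catalytic subunit of the first enzyme of glutathione synthesis, was at 69.7 CPM in control (-1.22), *SLC7A11*, the cystine importer, at 369 and 208 CPM (-0.82), and the transferase *GSTA4* at 55.9 and 115 CPM (1.04).

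*NQO1*, *HMOX1* and *TXNRD1* are counted among 20 NRF2 target genes with at least 1 CPM. Of these, 18 were lower and 2 higher, with a median of -0.56, beside 6219 lower and 5897 higher of the 12116 genes at this level. There were 5 more than 2-fold lower, *PIR* and *GCLC* among them, against 3.46% of all genes at this level, and none was more than 2-fold higher, against 3.45%. At 1.5-fold, 10 of the 20 were lower, against 9.36% of all, and 0 were higher, against 7.64%. *PIR*, an iron-binding nuclear protein, was at 34.9 and 10.8 CPM (-1.69). The 2 higher genes were *ABCC1*, an exporter of glutathione conjugates (0.50), and *UGDH* (0.37). *NQO1* (-0.52) and *TXNRD1* (-0.36) lay nearer to 0 than the median of this list, and *HMOX1* lay slightly below it (-0.60) over all cells but nearer to 0 without the 1% of cells highest in it (-0.20) or without cluster 6 (-0.18).

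Of the genes that regulate NRF2, *NFE2L2*, the gene of NRF2 itself, was at 139 CPM in control and 101 CPM in TGF-β1 (-0.46). *BACH1*, a repressor of *HMOX1* transcription, was at 64.4 and 52.6 CPM (-0.29), and *SQSTM1*, which sequesters *KEAP1*, at 211 and 141 CPM (-0.58). In this list, 6 of 8 genes were lower and 2 higher, with a median of -0.28.

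**Figure D5:**
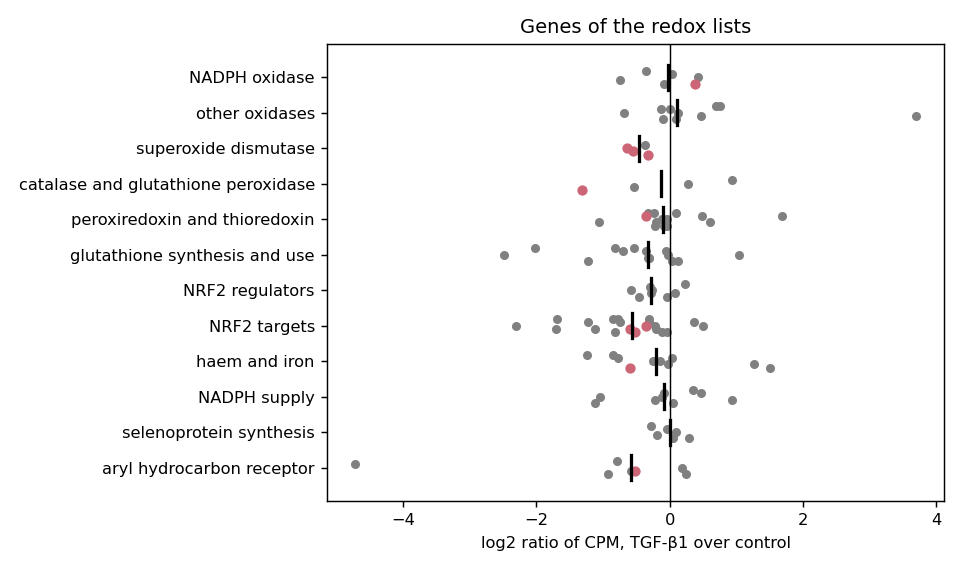
Log2 ratio of TGF-β1 over control for each gene of the redox lists averaging 1 CPM or more, 1 library per condition. Red points are *NOX4* and the antioxidant enzymes, grey points the other genes, and bars the list medians. The NRF2 target list lies mostly below 0 (median -0.56, 18 of 20 genes lower), and the NADPH oxidase list is centred near 0 (median -0.03).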

How the data were processed

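UMI counts per gene and cell barcode, deposited by the authors for 2 libraries (control and TGF-β1) of pooled fibroblasts of 4 mares each, were analysed. The authors made these counts with Cell Ranger against EquCab3.0 with the Ensembl annotation. Version 7.1.0 is named in the submitters' processing notes and 8.0.1 in the matrix header. Values were whole numbers without normalization and before the study's cell filters. Whether intronic reads were included is not given in the sources used here. The removal of doublets and the assignment of cells to mares that the study made from its reads were not repeated.

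The members, gene lists, filters and comparisons were chosen with earlier results of these data known. Kept cells held 20000 or more UMIs, 3500 or more genes and less than 4% mitochondrial UMIs. UMIs were summed per library and scaled to CPM in Python 3.11.15 (numpy 2.4.6, scipy 1.17.1, pandas 2.3.3), and intervals of ratios and shares were exact binomial at the 95% level. Figures used matplotlib 3.10.9. Clusters were built in Seurat 5.3.0 in R 4.3.3, with 2000 variable genes less the 5 members among them, 30 dimensions, canonical correlation integration and resolution 0.5. CD14 stood on 2 rows and was not used, and the following listed genes were not matched by symbol: RAC2, XDH, GPX5, SRXN1, GLRX5, GGT1, GSTP1, GSTT1, MAFG, MAFK, FTL, SEPHS2, KRT18 and KRT19. Named genes were all members, and in each list the 3 with the largest absolute ratio among those averaging 10 CPM or more. Some genes that this rule names are not reported here. Genes named beside these were picked after their values were seen. Likeness was the lower of both libraries' correlations over 7 clusters. Ratios were checked on simulated Poisson sums without a spread between cells, so the check does not cover unevenly spread genes such as *HMOX1*. No test was made, since each condition was 1 library. The mares were pooled, so their spread is not in any interval. Alternatives were other cell filters, scalings, CPM minimums, thinning depths, cluster resolutions and no integration.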

Additional observations from a re-analysis of the deposited data

How the results depend on the processing

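No paired analysis was possible because cells were not assigned to mares here, a step the study made from its reads, and the 2 libraries carry no replicate numbers. With 1 library per condition none could be left out. Of 377 alternative values, 2 reversed a direction whose interval excluded 0. The 377 include shares of cells, counts of genes and co-detection ratios, which cannot change sign and so are no check of direction. Without integration, only 1 cluster held at least 50 cells of each library, and the lowest cluster ratio there was 0.58 for *SOD3*, 0.07 for *HMOX1* and 0.67 for *NOX4*, which is also the highest for *NOX4*. At resolution 0.8 the lowest *NOX4* cluster ratio was 0.07 (-0.02 to 0.16). Among 104 alternative ratios of members other than *NOX4*, *GPX3* alone changed sign (-1.96 to 0.59, with 57 and 56 UMIs in all), and *NOX4* stayed above 0. *NOX4* was at 0.32 in cells of 20000 to 35000 UMIs and at 0.62 in cells of 35000 to 50000, alternatives chosen after seeing the data. The *NOX4* share was 64.2% in control and 76.2% in TGF-β1 without thinning, 29.3% and 40.0% at 10000 UMIs, and 21.2% and 31.4% when at least 2 UMIs were required. The NRF2 target median was -0.64 with the mean of per-cell CPM and -0.44 for genes of at least 10 CPM. At that minimum the median was -0.16 in place of -0.58 for the aryl hydrocarbon receptor list and -0.54 in place of -0.13 for catalase and the glutathione peroxidases. The genes more than 2-fold changed were 418 higher and 419 lower (837 in all) at a mean of at least 1 CPM, and 474 higher and 496 lower (970 in all) at a limit of 1.5-fold. The *HMOX1* ratio was -0.74 with the mean of per-cell CPM and -0.49 with standardised clusters. Why these values moved was not tested.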

Other observations

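Genes of haem and iron handling, a list that holds *HMOX1*, were split. The iron exporter *SLC40A1* was at 16.3 CPM in control and 46.5 CPM in TGF-β1 (log2 ratio 1.51), and the transferrin receptor *TFRC* at 31.6 and 75.9 CPM (1.27). *FTH1*, the heavy chain of ferritin, was at 1819 and 1010 CPM (-0.85). In all, 3 of 10 genes of this list were higher and 7 lower, with a median of -0.20. Of 9 genes that supply NADPH, 4 were higher and 5 lower, with a median of -0.09. *ALDH1L1* (37.0 and 17.9 CPM, -1.05) was lower, and the mitochondrial folate enzyme *MTHFD2* was higher (148 and 283 CPM, 0.94).

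In the aryl hydrocarbon receptor list, which holds *NQO1*, 2 genes were higher and 5 lower, with a median of -0.58, or of -0.16 over its 4 genes averaging 10 CPM or more. *AHR* itself was at 42.1 and 22.1 CPM (-0.93), and *TIPARP* was at 0.24. *CYP1A1*, the classic target of this receptor and chosen after its values were seen, was at 16.4 CPM in control and 0.623 CPM in TGF-β1 (-4.71). Of 10 other oxidases, 7 were higher and 3 lower, with a median of 0.11. The largest ratio was that of *MAOB*, which averaged below 10 CPM (0.247 and 3.21 CPM, 3.70) and was chosen after its values were seen. *PXDN*, a matrix peroxidase (174 and 293 CPM, 0.75), and *QSOX1*, a secreted thiol oxidase (60.6 and 98.7 CPM, 0.70), were higher, and *PAOX* was lower (-0.68). Of 6 genes of selenoprotein synthesis, which *TXNRD1* and *GPX3* need, 3 were higher and 3 lower, with a median of 0.00. The largest were *TRNAU1AP* (0.29), *SEPSECS* (-0.28) and *SEPHS1* (-0.19).

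Over the 7 clusters, the genes whose level followed each member most closely in both libraries, out of 7176 genes, are given as a description without a test, with the lower of both correlations. For *NOX4* these were *TULP4* (0.99), *RGL1* (0.98) and *CAB39* (0.98). For *SOD3* they were *SERPING1* (0.97), *TATDN1* (0.93) and *DPT* (0.91). For *CAT* they were *ANXA4* (0.94), *CATSPERD* (0.94) and *RIMOC1* (0.93). For *NQO1* they were *KYAT1* (0.95), *PIR* (0.94) and *EI24* (0.94). For *HMOX1* they were *DPH2* (0.98), *GABARAPL2* (0.97) and *SLC44A4* (0.96). For *SOD1* they were *STOML2*, *DEDD* and *GNB2* (0.96 each). For *SOD2* they were *CDK5RAP3* (0.97), *TMEM256* (0.96) and *NDUFV3* (0.95). For *TXNRD1* they were *PI4K2B*, *USP14* and *LRPPRC* (0.98 each). The points share library, depth and cells, and with so few of them high values are easily reached among many genes.

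The barcodes that the filters removed, 519 in control and 611 in TGF-β1, had a *NOX4* level of 125 and 169 CPM, higher than the kept cells. Their *CAT* level was 114 and 52.3 CPM and their *SOD1* level 283 and 174 CPM. *HMOX1* was at 75.8 and 37.9 CPM there. The direction of each between the libraries was that of the kept cells.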
